A study of Mus musculus with 8 samples.

Results

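Expression of 10 genes was followed in mouse liver after extended hepatectomy, an operation that leaves a small remnant of the organ. They were S100a4, S100a6, S100a8, S100a9, S100a10, S100a11, Lgals3, Lyz2, Plac8 and Retnlg, a set of S100 protein genes and genes used as markers of recruited myeloid cells. They were taken by symbol from a table of 47719 genes. All 10 were among the 12340 genes that reached 1 FPKM in at least 2 libraries, FPKM being a fragment number adjusted for the length of the transcript and the size of the library. S100a4 and Retnlg reached that level in no control library and passed through the hepatectomy groups alone. The 8 libraries came from liver of wild type C57BL/6 mice: 2 normal controls aged 10 weeks, 4 labelled day 2 after hepatectomy and 2 labelled day 14. The study concerns encapsulated human hepatocyte organoids given in liver failure, and its design text names EMC as the treated control at day 2 and eLO at days 2 and 14. No label ties a day 2 library to either treatment, so surgery, treatment and time cannot be told apart, and the ages of the hepatectomy mice in weeks are not given.

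S100 proteins are small calcium-binding proteins that mostly work as dimers. S100A8 and S100A9 pair as calprotectin, which neutrophils and monocytes hold in large amounts, release at sites of injury, and which binds zinc and manganese and signals through Toll-like receptor 4 and RAGE. S100A10 and S100A11 are instead partners of annexins at membranes, and S100A4 and S100A6 bind cytoskeletal and signalling proteins in motile and growing cells. Galectin-3, encoded by Lgals3, is a sugar-binding protein of macrophages. Lysozyme 2 is an enzyme of myeloid cells that cuts bacterial cell walls, and Plac8 and Retnlg are small proteins found in such cells. Resting liver holds resident macrophages called Kupffer cells, and neutrophils and monocytes enter it after injury.

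RefSeq promoter windows on GRCm38.p6, from 250 bases before to 50 after a gene's annotated start, were held for 9 of the 10 genes, 10 windows in all because Plac8 had 2. The 4 windows below belong to S100a8, S100a9 and S100a4, whose levels ordered the day 2 libraries alike, and to S100a11, which was called in all 3 comparisons made below. Capitals mark matches on either strand to 4 short motifs: TTNNGNAA (C/EBP-type), TGANTCA (AP-1-type), TTCNNNGAA (STAT-type) and TATAAA.
S100a8, chr3:90668821-90669120, plus strand: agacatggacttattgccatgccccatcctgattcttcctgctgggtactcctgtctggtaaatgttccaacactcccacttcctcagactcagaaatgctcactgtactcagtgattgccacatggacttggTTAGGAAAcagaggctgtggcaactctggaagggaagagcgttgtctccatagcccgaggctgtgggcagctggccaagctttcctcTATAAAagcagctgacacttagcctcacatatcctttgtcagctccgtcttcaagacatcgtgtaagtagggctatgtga
S100a9, chr3:90695672-90695971, minus strand: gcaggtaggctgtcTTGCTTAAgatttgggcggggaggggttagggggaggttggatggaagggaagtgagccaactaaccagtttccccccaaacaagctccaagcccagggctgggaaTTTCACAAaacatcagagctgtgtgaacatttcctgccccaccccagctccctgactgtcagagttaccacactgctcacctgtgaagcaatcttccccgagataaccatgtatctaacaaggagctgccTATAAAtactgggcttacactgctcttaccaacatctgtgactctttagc
S100a4, chr3:90603520-90603819, plus strand: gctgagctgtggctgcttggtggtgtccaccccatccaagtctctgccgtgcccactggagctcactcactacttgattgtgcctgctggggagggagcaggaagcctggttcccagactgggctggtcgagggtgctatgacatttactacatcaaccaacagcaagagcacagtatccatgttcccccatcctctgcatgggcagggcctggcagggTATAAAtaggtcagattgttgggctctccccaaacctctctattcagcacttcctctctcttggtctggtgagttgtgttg
S100a11, chr3:93520246-93520545, plus strand: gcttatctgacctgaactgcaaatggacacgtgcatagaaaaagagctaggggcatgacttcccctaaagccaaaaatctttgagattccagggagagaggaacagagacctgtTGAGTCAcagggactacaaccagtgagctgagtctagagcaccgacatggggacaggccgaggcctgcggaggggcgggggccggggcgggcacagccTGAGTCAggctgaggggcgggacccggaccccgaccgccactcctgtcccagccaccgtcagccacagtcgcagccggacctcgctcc
TATAAA lay in 3 of the 10 windows, those of S100a4, S100a8 and S100a9, against 13.6% of all 32851 windows in the table. In S100a4 and S100a8 it began 31 and 30 bases before the annotated start. In S100a9 it began at the annotated start itself. The C/EBP-type letters were in 6 of the 10 windows and in 40.7% of all windows, so their presence sets none of these genes apart. The AP-1-type letters were in 1 of the 10 windows and in 7.81% of all, and the window of S100a11 held the same 7 letters, TGAGTCA, at 2 places. No window of these genes held the STAT-type letters, which 8.30% of all windows held. These are matches of letters and not measured sites.

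The 8 libraries gave between 686332 and 1298000 FPKM in total and between 10796 and 11197 genes at 1 FPKM or more; read depth is unknown. The 4 day 2 libraries fell into pairs. Across the tested genes, which are not independent replicates, replicates 1 and 2 correlated at r = 0.959 and replicates 3 and 4 at r = 0.968, and the highest value between the pairs was 0.926. The title of day 2 replicate 1 reads d1 while its age label reads day 2, and the title of replicate 3 has the letters TVR, left unexplained. Whether each library is a separate mouse is not stated, and p-values therefore cover only the spread between libraries, which may be technical. Within day 2 that spread may also include a difference between the treatments, which the labels do not allow to be separated. The liver identity of the samples was clear from Alb, the albumin gene of hepatocytes, whose level was high in every library, at least 14930 FPKM.

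At day 2, 9 of the 10 genes were higher than in normal liver and none was lower, by limma with Benjamini-Hochberg adjustment over all 12340 genes at 0.05. The exception was Lyz2. Of all genes tested, 9.72% were called higher and 11.5% lower in that comparison, shares to set beside the day 2 counts of the lists below. The 10 genes had been chosen with earlier results of these data known, and S100a4 and Retnlg passed the filter through the hepatectomy groups alone. The contrast with all genes is therefore partly set in advance and is no independent support. With either control left out 1 of the 9, S100a11, was still called, and of all genes 137 without control replicate 1 and 112 without control replicate 2. The median log2 difference was 2.52 for the 10 genes and 0.05 for all genes tested, on a log2(FPKM + 1) scale that makes changes of low genes look smaller than they are. In bulk tissue, more cells of a type and more RNA per cell cannot be told apart, and this holds for every result here. Summed over the 10 genes, the level was 220 and 207 FPKM in the controls, 1135, 1066, 665 and 835 FPKM in day 2 replicates 1 to 4, and 186 and 267 FPKM at day 14. The day 2 sums all lay above the other 4, and S100a10 and S100a11 made up most of each.

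**Figure D1:**
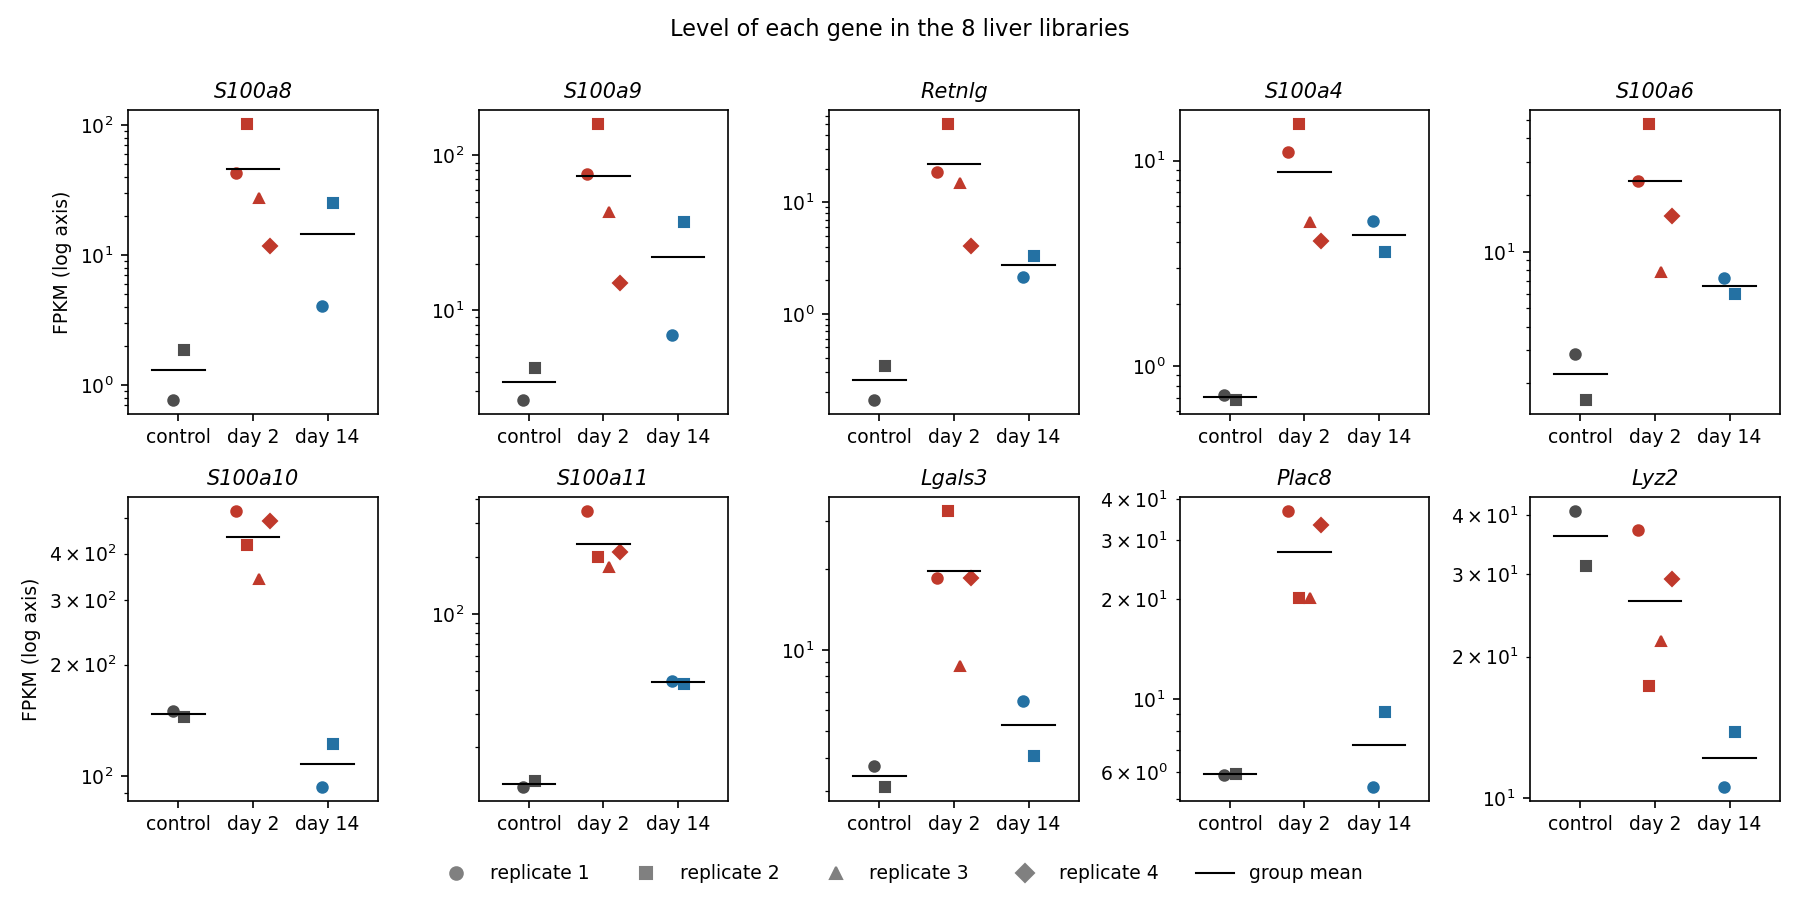
FPKM of each of the 10 genes on a log axis in the 2 control, 4 day 2 and 2 day 14 libraries, with a symbol for each replicate and a line at the group mean. For 9 genes the 4 day 2 libraries sit above both controls, while Lyz2 overlaps with the controls at day 2 and lies under them at day 14. The share of all genes with such a separation was not counted.

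The calprotectin genes S100a8 and S100a9 were among the most changed of the set at day 2. S100a8 stood at 0.769 and 1.85 FPKM in the controls, at 42.4, 102.2, 27.4 and 11.7 FPKM in day 2 replicates 1 to 4, and at 4.07 and 25.0 FPKM at day 14. The group means were 1.31 ± 0.76 FPKM for control (SD, n = 2) and 45.9 ± 39.5 FPKM for day 2 (SD, n = 4). Every day 2 library was above both controls, yet the day 2 libraries spread over a wide range among themselves. The log2 difference was 3.99 ± 0.86 (SE; limma adjusted p = 0.0170). S100a9 stood at 2.64 and 4.24 FPKM in control, at 75.5, 160.1, 43.3 and 15.1 FPKM at day 2, and at 6.97 and 37.2 FPKM at day 14. The groups of control and day 2 did not overlap for this gene either, with a log2 difference of 3.64 ± 0.90 (limma adjusted p = 0.0269). That call was lost without day 2 replicate 1 (log2 3.48, adjusted p = 0.0588) and without the filter on low values (adjusted p = 0.0644).

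The 2 calprotectin genes stayed within a narrow range of proportions in the hepatectomy libraries. The ratio of S100a9 to S100a8, both per length, was 1.78, 1.57, 1.58 and 1.29 at day 2 and 1.71 and 1.49 at day 14. In the controls, where both genes were low, it was 3.43 and 2.30, above every hepatectomy library. The 2 genes correlated at r = 0.995 over the 8 libraries on the log2 scale, a description over libraries that include the group differences.

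Retnlg, which encodes a resistin-like protein of neutrophils and their precursors, had the lowest control level of the set. It stood at 0.169 and 0.341 FPKM in control, at 18.7, 50.7, 15.0 and 4.04 FPKM at day 2, and at 2.15 and 3.34 FPKM at day 14. The 3 groups did not overlap, with control lowest and day 2 highest. Its log2 difference at day 2 was 3.76 ± 0.75 (limma adjusted p = 0.0133). The ratio of group means was 86.6, a value that rests on control levels under 1 FPKM.

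The other granule and antimicrobial genes of neutrophils did not all move with these 3. Of 15 on the list 6 were tested, and 1 was called higher at day 2 and none lower. That gene was Lcn2, which encodes an iron-withholding protein that hepatocytes also secrete in the acute phase. It stood at 16.5 and 33.0 FPKM in control, at 5936, 5894, 3466 and 1854 FPKM at day 2, and at 58.4 and 296 FPKM at day 14, with a log2 difference at day 2 of 7.31 ± 0.71 (limma adjusted p = 0.00174). Its day 2 libraries took the same order as those of S100a8 only in that replicate 4 was lowest and replicate 3 next. Prtn3, a primary granule protease gene, stood at 4.003 and 6.35 FPKM in control, at 4.46, 13.4, 201.6 and 54.4 FPKM at day 2, and at 5.13 and 56.6 FPKM at day 14 (day 2 log2 2.34 ± 1.39, limma adjusted p = 0.254). It was high in replicates 3 and 4, unlike the calprotectin genes. Ngp, a secondary granule gene, was listed at 0 in both controls and stood at 1.45, 4.43, 0.916 and 0.260 FPKM at day 2 and at 0.0866 and 2.97 FPKM at day 14 (day 2 log2 1.25 ± 0.64, limma adjusted p = 0.190). Camp, Ltf, Mpo and Elane, made in immature neutrophils, stayed under 1 FPKM in all control and day 2 libraries and in day 14 replicate 1. In day 14 replicate 2, also the higher of its pair for S100a8 and S100a9, Camp stood at 3.40, Mpo at 2.33, Ltf at 1.18 and Elane at 0.761 FPKM.

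Surface and signalling markers of neutrophils gave no call at day 2, and their levels differed from gene to gene. Of 17 such genes 10 were tested, and 0 were called in either direction at day 2 by limma, 3 having an unadjusted p under 0.05. Ly6g, the defining surface marker of mouse neutrophils, ranged from 0 to 0.334 FPKM at day 2 and stood at 0 and 0.736 FPKM in the controls. Cxcr2, their chemokine receptor, stood at 0.741, 1.69, 0.268 and 0.275 FPKM at day 2 and under 0.1 FPKM in both controls. Cd177 stayed under 0.4 FPKM in all libraries. Csf3r, the receptor for granulocyte colony-stimulating factor, stood at 2.36, 6.24, 0.895 and 0.756 FPKM at day 2 against 0.543 and 0.607 FPKM in control (log2 0.93 ± 0.52, limma adjusted p = 0.230). Il1r2, a decoy receptor for interleukin-1, stood at 0.0693 and 0.236 FPKM in control and at 3.07, 19.6, 0.810 and 0.251 FPKM at day 2 (log2 1.69 ± 0.96, limma adjusted p = 0.232). Clec4d, a C-type lectin receptor of myeloid cells, stood at 0.0901 and 0.260 FPKM in control and at 2.56, 8.14, 0.807 and 1.25 FPKM at day 2 (log2 1.53 ± 0.58, limma adjusted p = 0.0925). For both, every day 2 library was above both controls. Hdc, the histamine-forming enzyme gene, stood at 2.51 and 2.45 FPKM in control and at 16.2, 38.4, 2.15 and 6.81 FPKM at day 2 (log2 1.71 ± 0.85, limma adjusted p = 0.181), so that its groups overlapped. Replicates 1 and 2, the high ones for Csf3r, Il1r2, Clec4d and Hdc, were also the high ones for S100a8, S100a9 and Retnlg. Those 4 markers were named after their values were seen, and Fpr1, also tested, did not follow that order. Fpr1 stood at 1.18 and 1.53 FPKM in control and at 1.03, 1.18, 0.749 and 1.67 FPKM at day 2 (log2 -0.14). The summed level of the list was 23.0 and 37.3 FPKM in control, 200, 176, 13.9 and 60.6 FPKM at day 2 and 506 and 266 FPKM at day 14. It was carried mainly by G0s2, a lipolysis inhibitor that liver also expresses. How far neutrophil number bears on S100a8, S100a9 and Retnlg was not tested.

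S100a4 and S100a6, which lie close together on chromosome 3 and bind cytoskeletal and signalling partners, were both higher at day 2. S100a4 stood at 0.722 and 0.683 FPKM in control, at 10.99, 15.1, 5.01 and 4.04 FPKM at day 2, and at 5.06 and 3.59 FPKM at day 14. Of the day 14 values 1 fell inside the range of day 2 and 1 just under it, and both groups were above the controls. The day 2 log2 difference was 2.36 ± 0.46 (limma adjusted p = 0.0121). S100a6 stood at 2.86 and 1.64 FPKM in control, at 23.9, 47.8, 7.76 and 15.4 FPKM at day 2, and at 7.22 and 5.94 FPKM at day 14. Its 3 groups did not overlap, although day 2 replicate 3 was only slightly above the day 14 libraries. The day 2 log2 difference of S100a6 was 2.68 ± 0.58 (limma adjusted p = 0.0177).

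S100a10 and S100a11, the annexin partners, were the most abundant of the 10 genes at day 2. S100a11 stood at 12.4 and 13.3 FPKM in control, at 348, 198, 176 and 213 FPKM at day 2, and at 44.7 and 42.9 FPKM at day 14. The 3 groups were far apart, with the lowest day 2 library above every other library. The log2 difference at day 2 was 4.03 ± 0.29 (95% interval 3.36 to 4.71, limma adjusted p = 0.000899), the largest among the 10 genes in this fit. S100a11 kept this call in all 18 alternatives run.

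S100a10 was already abundant in normal liver. It stood at 149.9 and 144.7 FPKM in control, at 523, 422, 341 and 491 FPKM at day 2, and at 93.3 and 121.7 FPKM at day 14. Its log2 difference at day 2 was 1.57 ± 0.26 (limma adjusted p = 0.00771), the smallest of the 9 genes called. The ratio of S100a10 to S100a11, both per length, was 12.1 and 10.9 in control, between 1.50 and 2.31 at day 2, and 2.09 and 2.84 at day 14. The day 14 ratio thus stayed near that of day 2 although both levels were lower than at day 2.

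Annexin genes were read beside these 2. Of 13 annexins and S100 partners, all tested, 4 were called higher at day 2 (Anxa1, Anxa2, Anxa5 and Anxa7) and 1 lower (Plg, the plasminogen gene of hepatocytes). The list's median log2 difference was 0.60. Anxa2, which forms a tetramer with S100A10, stood at 7.73 and 5.78 FPKM in control, at 106.1, 65.1, 72.0 and 144.6 FPKM at day 2, and at 5.07 and 7.30 FPKM at day 14. Its log2 difference at day 2 was 3.60 ± 0.35 (limma adjusted p = 0.00174), and its day 14 values overlapped with control. The ratio of S100a10 to Anxa2 was 19.4 and 25.0 in control, between 3.40 and 6.48 at day 2, and 18.4 and 16.7 at day 14. Anxa5, which binds phosphatidylserine, stood at 58.8 and 53.7 FPKM in control and between 166 and 339 FPKM at day 2 (log2 1.97 ± 0.36, limma adjusted p = 0.0103).

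Lgals3, the galectin-3 gene, stood at 3.71 and 3.11 FPKM in control, at 18.4, 32.8, 8.71 and 18.5 FPKM at day 2, and at 6.47 and 4.05 FPKM at day 14. The 3 groups did not overlap, with day 2 highest. The log2 difference at day 2 was 2.09 ± 0.44 (limma adjusted p = 0.0158). Among 5 tested galectin genes on the list, which includes the galectin-3 binding protein and not Lgals3 itself, 1 was called higher and 1 lower at day 2. The shares over all genes tested were 9.72% higher and 11.5% lower. Lgals3bp, that binding protein, was higher (28.4 and 28.2 FPKM in control, 43.9 to 96.9 FPKM at day 2; log2 1.32 ± 0.33, limma adjusted p = 0.0270). Lgals9, a galectin abundant in Kupffer cells and endothelium, was lower (299 and 297 FPKM in control, 104 to 216 FPKM at day 2; log2 -1.09 ± 0.33, limma adjusted p = 0.0474).

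Plac8, a small cysteine-rich protein of myeloid cells and some epithelia, stood at 5.90 and 5.94 FPKM in control, at 36.8, 20.1, 20.2 and 33.5 FPKM at day 2, and at 5.43 and 9.11 FPKM at day 14. Day 2 was above all other libraries, and the day 14 pair lay on both sides of the controls. The day 2 log2 difference was 2.00 ± 0.32 (limma adjusted p = 0.00710).

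Lyz2 did not pass the test at day 2. It stood at 40.9 and 31.3 FPKM in control, at 37.1, 17.3, 21.6 and 29.2 FPKM at day 2, and at 10.6 and 13.8 FPKM at day 14. Day 2 replicate 1 lay between the controls and the other 3 day 2 libraries below them. The log2 difference at day 2 was -0.48 ± 0.32 (limma adjusted p = 0.300), with a 95% interval of -1.22 to 0.25. That interval lies below the day 2 intervals of the other 9 genes, of which the lowest bound was 0.97 for S100a10. Lyz1, its near-identical neighbouring copy, was listed at 0 in 6 libraries and at 0.163 FPKM at most, so how shared reads were divided between the copies is uncertain.

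By day 14 most of the set was closer to the controls. Against normal liver 1 of the 10 genes was called higher, S100a11, and 1 lower, Lyz2, while 5.21% of all genes tested were called higher and 4.58% lower. S100a11 was higher by 1.69 ± 0.34 log2 units (limma adjusted p = 0.0313), and its ratio of group means was 3.41. Lyz2 fell by 1.49 ± 0.37 on the log2 scale (limma adjusted p = 0.0447), to a mean of 12.2 ± 2.3 FPKM (SD, n = 2) from 36.1 ± 6.8 FPKM (SD, n = 2). Both calls were lost when the dependence on transcript length and GC content was removed (log2 1.23, adjusted p = 0.0775 for S100a11; log2 -1.51, adjusted p = 0.0564 for Lyz2). Leaving out either control or either day 14 library leaves 1 library in that group, and also ended both calls. The log2 differences were then 1.65 to 1.74 for S100a11 and -1.68 to -1.30 for Lyz2. Fewer genes of the whole table were called in each of these fits, so the loss is not particular to these 2 genes. Over the 18 alternatives the adjusted p of Lyz2 ranged from 0.0145 to 0.242, under 0.05 in 9 of them, and that of S100a11 from 0.00973 to 0.224, under 0.05 in 13.

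The other 8 genes did not pass the test at day 14. S100a4, S100a6, S100a8, S100a9, Retnlg and Lgals3 had both day 14 libraries above both controls, with log2 differences from 0.48 for Lgals3 to 2.36 for S100a8. With 2 libraries against 2 such a separation is easily reached, and its share over all genes was not counted. S100a8 had a 95% interval of 0.08 to 4.63 (limma adjusted p = 0.156) and S100a4 one of 0.42 to 2.84 (limma adjusted p = 0.0841). S100a8 and S100a9 differed widely between the 2 day 14 libraries, replicate 2 being several times replicate 1 for both. S100a10 had both day 14 libraries under both controls (log2 -0.46, 95% interval -1.15 to 0.22, limma adjusted p = 0.338). The direction for Plac8 depended on the setting: its log2 difference was 0.22, and -0.11 without day 14 replicate 2.

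Between day 14 and day 2, 4 of the 10 genes were called lower at day 14 and none higher, and 7.03% of all genes tested were called lower and 9.09% higher. The control libraries enter neither mean here, but this comparison shares the day 2 and day 14 libraries with the others. S100a11 fell by 2.34 ± 0.29 on the log2 scale (limma adjusted p = 0.00466) and S100a10 by 2.03 ± 0.26 (limma adjusted p = 0.00484). Plac8 fell by 1.78 ± 0.32 (limma adjusted p = 0.0131) and Lgals3 by 1.61 ± 0.44 (limma adjusted p = 0.0431). For these 4 genes the day 14 libraries lay under all day 2 libraries, as they also did for S100a6, Lyz2 and Retnlg, which were not called. The share of all genes with such a separation was not counted, so it adds nothing to the test. The other 6 had lower means at day 14 and did not pass, from log2 -0.73 ± 0.46 for S100a4 (limma adjusted p = 0.294) to -2.20 ± 0.75 for Retnlg (limma adjusted p = 0.0788). Without day 2 replicates 3 and 4 the genes called lower were 8 of 10, and 1383 of all 12340 genes tested were called lower. Without day 14 replicate 1, 1 library remained at day 14 and no gene of the set was called. Few genes of the whole table were called in that fit either. The log2 differences of the set were then from -2.37 for S100a11 to -0.45 for S100a8. The Lgals3 call held in 8 of the 18 alternatives, with log2 differences from -2.06 to -1.16 and adjusted p from 0.00773 to 0.188. It was lost with no filter, with the compared groups alone, with the length and GC trend removed, without either control, without day 2 replicate 1, without day 2 replicate 4, without day 2 replicates 1 and 2, and without either day 14 library.

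**Figure D2:**
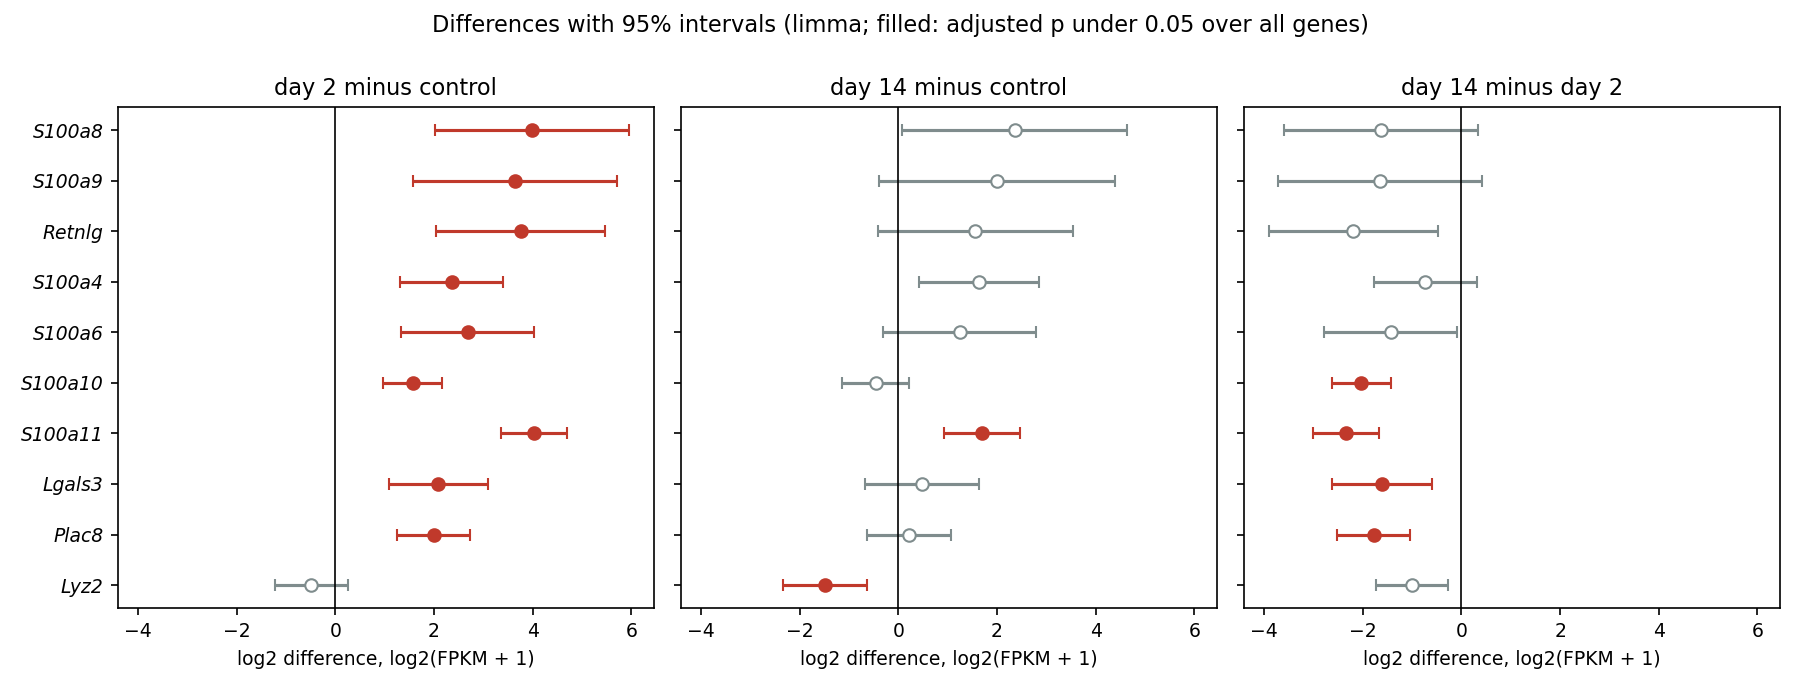
Log2 difference of each gene on the log2(FPKM + 1) scale with its 95% interval in the 3 comparisons, filled where the limma adjusted p over all genes was under 0.05. The 9 filled points of the first panel lie right of 0, and S100a11 is the gene with a filled point in all 3 panels.

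The 10 genes did not share 1 order of the day 2 libraries. S100a4, S100a8, S100a9 and Retnlg were each highest in replicate 2, followed by replicates 1, 3 and 4. S100a6 and Lgals3 were also highest in replicate 2, but lowest in replicate 3. S100a10, S100a11, Plac8 and Lyz2 were highest in replicate 1. No day 2 library was far enough from the other 3 to be an outlier for any of the 10 genes by Dixon's test on the log2 scale, the widest gap being 0.722 of the group's range, for S100a11. All 9 day 2 calls held without replicates 1 and 2 and again without replicates 3 and 4, in fits added after the split had been seen. Each of these fits keeps 2 libraries that are alike, and calls over all genes rose from 2620 to 3547 and 3956. The calls were thus likely to hold, and these fits are no independent check. The log2 difference of S100a8 was 3.08 without the first pair and 4.90 without the second, that of Retnlg 2.84 and 4.67, and that of S100a11 3.81 and 4.25.

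Over the 8 libraries the pairs of genes most alike were S100a8 with S100a9 (r = 0.995), S100a6 with Lgals3 (r = 0.966), S100a9 with Retnlg (r = 0.958) and S100a10 with Plac8 (r = 0.956). Lyz2 correlated with the other 9 between -0.36 for S100a4 and 0.42 for S100a10. The gene outside the set most like both calprotectin genes was Mvb12a, at r = 0.988 with S100a8 and 0.985 with S100a9. For S100a10 it was Mfge8, which encodes a secreted protein that bridges dying cells to phagocytes (r = 0.995), and for S100a11 it was Rce1, a prenyl protein protease (r = 0.991), followed by Mthfd1l and Lmna. Plac8 was most like Gja4, a gap junction gene (r = 0.995), Retnlg like the ribosomal protein gene Rps6 (r = 0.988), and Lgals3 like Ctla2a (r = 0.990) ahead of Pycard, the inflammasome adaptor. S100a4 was most like Gpn2 (r = 0.990), S100a6 like Tor1a (r = 0.989) and Lyz2 like Dph6 (r = 0.956). These are the highest of 12340 genes over 8 points that share group differences and library effects.

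Short transcripts were higher as a class in the hepatectomy libraries, and all 10 genes have short transcripts. In the GENCODE M21 annotation their median coding transcripts run from 486 bases for S100a8 to 1316 bases for Lyz2. The shortest eighth of tested protein-coding genes, 204 to 1167 bases, held 8 of the 10 genes and had a median log2 difference of 0.59 at day 2 and 0.41 at day 14. The longest eighth had medians of -0.34 and -0.26. With this trend and that of GC content removed, all 9 day 2 calls held. The day 2 differences were then 3.68 for S100a8, 3.33 for S100a9, 3.45 for Retnlg, 1.92 for S100a4, 2.11 for S100a6, 1.14 for S100a10, 3.58 for S100a11, 1.61 for Lgals3 and 1.80 for Plac8. The weakest call was that of Lgals3, at a limma adjusted p = 0.0490.

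**Figure D3:**
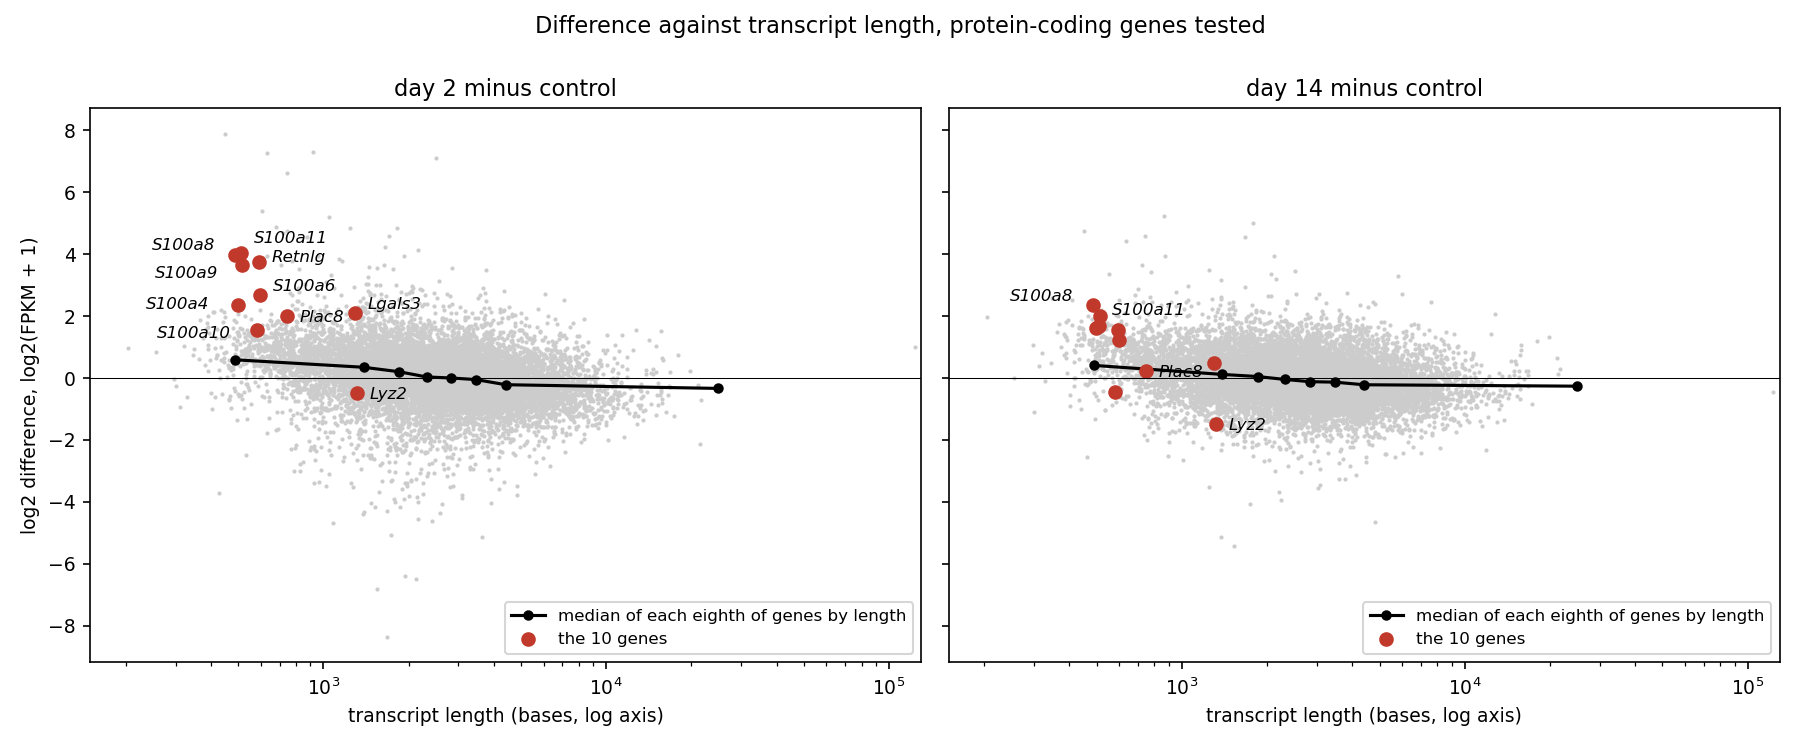
Log2 difference at day 2 and at day 14 against transcript length on a log axis, with a grey point for each tested protein-coding gene, a black line through the medians of 8 length groups and red points for the 10 genes. At day 2 the red points other than Lyz2 lie above the line, which falls from 0.59 to -0.34.

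All 6 S100 genes of the set lie on chromosome 3, in 2 groups (GENCODE M21 on GRCm38; the build of the deposited table is not certain). S100a4, S100a6, S100a8 and S100a9 lie between 90603771 and 90695721, a span of 92.0 kb that holds 7 genes of the table, of which these 4 alone were tested. S100a10 and S100a11 lie between 93520488 and 93564643, a span of 44.2 kb. From the first of the 6 to the last there were 112 genes in the table, 92 of them at 0 in all libraries. The 9 tested genes of that span were the 6 S100 genes and Ivl, Lor and Sprr1a, genes of the skin barrier. Lgals3 lies on chromosome 14 (47367751 to 47386160), Lyz2 on 10 (117277331 to 117282321), Plac8 on 5 (100553725 to 100572245) and Retnlg on 16 (48872621 to 48874496).

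The other S100 genes measured were not called at day 2. Of 12 further family members 11 were in the table and 3 were tested, and 0 of these were called at day 2 by limma, 0 having an unadjusted p under 0.05. S100a1, a calcium sensor best known from muscle, stood at 145 and 136 FPKM in control, between 104 and 146 FPKM at day 2, and at 297 and 342 FPKM at day 14. It was higher at day 14 than in control (log2 1.17 ± 0.26, limma adjusted p = 0.0355) and than at day 2 (log2 1.37 ± 0.23, limma adjusted p = 0.00978). S100a13, which takes part in release of proteins that lack a signal peptide, stood at 19.4 and 19.9 FPKM in control, between 18.9 and 28.7 FPKM at day 2, and at 44.1 and 71.8 FPKM at day 14. It too was higher at day 14 than in control (log2 1.47 ± 0.30, limma adjusted p = 0.0328) and than at day 2 (log2 1.21 ± 0.26, limma adjusted p = 0.0212). Of all genes tested 5.21% were called higher at day 14 than in control and 9.09% higher than at day 2. S100a1 and S100a13 have short transcripts, of 627 and 715 bases, in the length group whose median day 14 difference from control was 0.41. Whether their calls hold with the length and GC trend removed was not examined. S100a16 was called in none of the 3 comparisons, and 5 of the remaining genes were listed at 0 in all libraries.

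**Figure D4:**
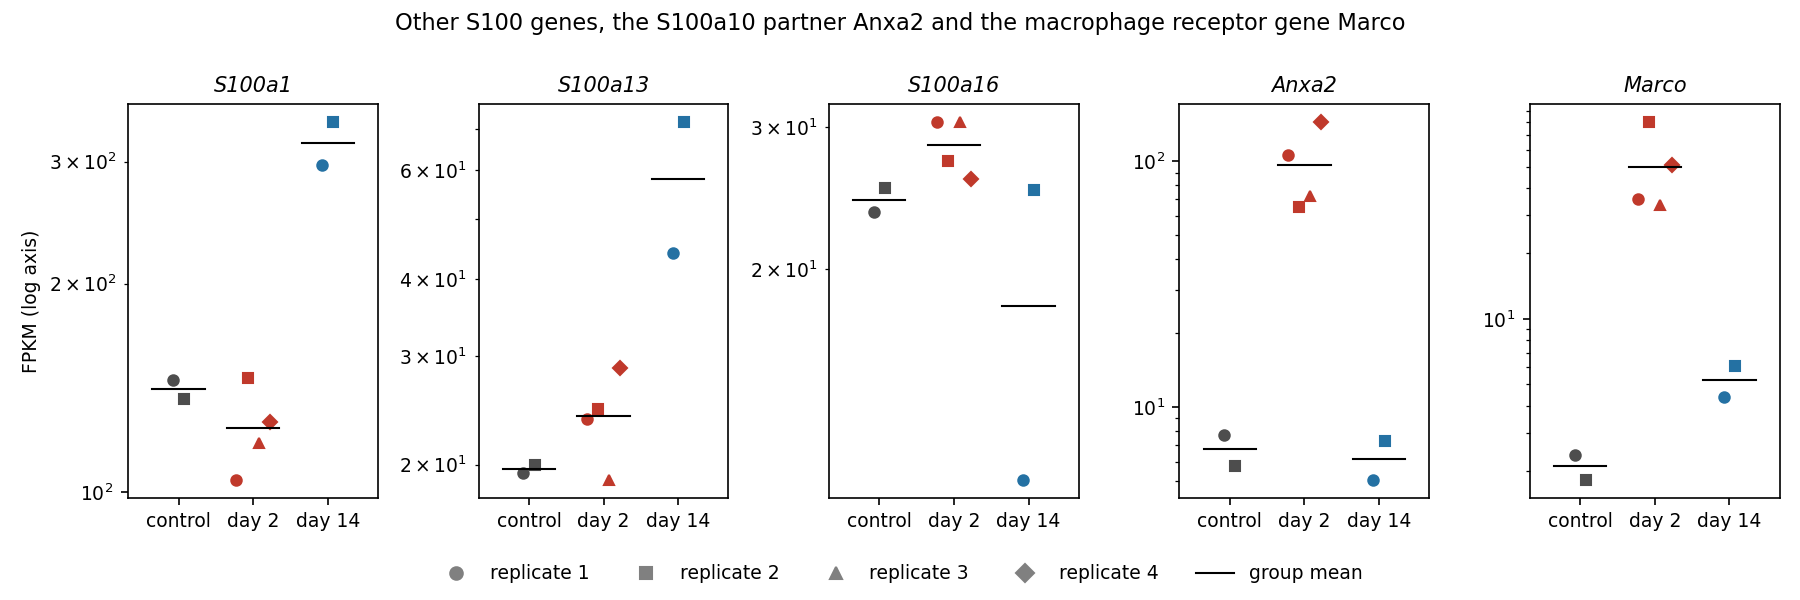
FPKM on a log axis of S100a1, S100a13, S100a16, Anxa2 and Marco in the 8 libraries, with a symbol for each replicate and a line at the group mean. S100a1 and S100a13 are highest at day 14, whereas Anxa2 and Marco are highest at day 2.

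Receptors for extracellular S100 proteins gave no call at day 2. Of 7 on the list 5 were tested and 0 were called at day 2 by limma, 2 having an unadjusted p under 0.05. Tlr4, the Toll-like receptor that calprotectin engages, stayed between 0.106 and 0.532 FPKM in all libraries. Ager, which encodes RAGE, was under 1 FPKM in all libraries other than day 2 replicate 2, at 4.59 FPKM. Cd14, a co-receptor of Toll-like receptor 4 on monocytes and macrophages, stood at 1.25 and 1.31 FPKM in control, at 67.5, 180.5, 5.22 and 7.86 FPKM at day 2, and at 0.487 and 1.80 FPKM at day 14. Every day 2 library was above both controls, with replicates 1 and 2 highest as for the calprotectin genes (log2 3.66 ± 1.25, unadjusted p = 0.0185, limma adjusted p = 0.0700). Bsg, which encodes basigin, a surface receptor for S100A9, was the most abundant, at 265 and 258 FPKM in control and 297 to 519 FPKM at day 2 (log2 0.61 ± 0.32, limma adjusted p = 0.198).

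Chemokines and growth factors that attract myeloid cells were read as a list of 16, of which 9 were tested, and 4 were called higher at day 2 and none lower. Cxcl1, a neutrophil attractant, stood at 2.77 and 10.4 FPKM in control, at 63.8, 251, 202 and 30.4 FPKM at day 2, and at 33.3 and 30.4 FPKM at day 14 (day 2 log2 3.95 ± 0.83, limma adjusted p = 0.0161). Ccl2, the main monocyte attractant, stood at 0.196 and 0.296 FPKM in control and at 23.7, 17.8, 1.75 and 5.20 FPKM at day 2 (log2 2.92 ± 0.82, limma adjusted p = 0.0393). The day 2 libraries high in Ccl2 were replicates 1 and 2, which were also high in the calprotectin genes. Cxcl1 did not share this order, being highest in replicates 2 and 3.

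Among markers of recruited monocytes 14 of 20 were tested. Against shares of 9.72% higher and 11.5% lower over all genes tested, 2 were called higher at day 2 and none lower. These were Ly6c1 and Ly6c2, near-identical copies whose shared reads make each level uncertain; Ly6c2, a marker of inflammatory monocytes, stood at 0.225 and 0.309 FPKM in control and at 2.22, 2.27, 1.43 and 0.900 FPKM at day 2 (log2 1.06 ± 0.30, limma adjusted p = 0.0415). Ccr2, the receptor for Ccl2, reached 1 FPKM in 1 library alone, day 2 replicate 1. Chil3 was listed at 0 in both controls and stood at 19.9, 35.5, 0.780 and 2.13 FPKM at day 2 (limma adjusted p = 0.0870). The summed level of the list ranged from 942 to 948 FPKM in control, 1177 to 1698 FPKM at day 2 and 1042 to 1379 FPKM at day 14. It was carried mainly by Ifitm3, an interferon-induced gene of many cell types (647 and 641 FPKM in control), and Fn1, the fibronectin gene that hepatocytes also express (244 and 258 FPKM in control), so it says little of the other members. Of 11 tested markers of lipid-associated macrophages 3 were called higher at day 2 and none lower: Cd63, Cd9 and Trem2. Cd63, a lysosomal membrane gene, was the most changed, from 3.68 and 4.49 FPKM to between 22.0 and 88.2 FPKM (log2 3.34 ± 0.52, limma adjusted p = 0.00642), and many cell types express it.

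Of the 14 Kupffer cell markers, all tested, 6 were called lower at day 14 than in control, 0 were called higher and 8 did not pass. Over all genes tested 4.58% were called lower and 5.21% higher. The 6 were Adgre1, Csf1r, Vsig4, C1qa, C1qb and C1qc. The summed level of all 14 was 237 and 198 FPKM in control, between 193 and 295 FPKM at day 2 and 103 and 115 FPKM at day 14, and the median log2 difference at day 14 was -1.01. C1qa, a complement gene of tissue macrophages, stood at 33.9 and 31.3 FPKM in control, between 30.0 and 46.5 FPKM at day 2 and at 9.31 and 13.5 FPKM at day 14 (log2 -1.46 ± 0.30, limma adjusted p = 0.0324). At day 2 the list gave 1 higher and 2 lower calls, while 9.72% of all genes tested were called higher and 11.5% lower. Marco, a scavenger receptor, was higher, at 2.38 and 1.83 FPKM in control and 33.4 to 80.4 FPKM at day 2 (log2 3.96 ± 0.36, limma adjusted p = 0.00162). Adgre1, which encodes the macrophage antigen F4/80, was lower, at 3.90 and 2.60 FPKM in control and 0.223 to 1.45 FPKM at day 2 (log2 -1.24 ± 0.33, limma adjusted p = 0.0317). The part of Kupffer cell number in the Lyz2 values was not tested.

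Genes of most white blood cells gave mixed calls. Of 14 tested, 2 were called higher at day 2 (Fcer1g and Arhgdib) and 1 lower (Lcp1). Over all genes tested 9.72% were called higher and 11.5% lower, so these counts are near those shares. Ptprc, which encodes the pan-leukocyte antigen CD45, stood at 1.62 and 1.63 FPKM in control and between 0.605 and 1.20 FPKM at day 2 (log2 -0.44 ± 0.21, limma adjusted p = 0.171). Tyrobp, an adaptor of myeloid receptors, stood at 16.1 and 10.1 FPKM in control and between 11.4 and 27.4 FPKM at day 2 (limma adjusted p = 0.350). The summed level of the list was 128 and 103 FPKM in control, 208, 241, 103 and 146 FPKM at day 2 and 70.5 and 98.4 FPKM at day 14, again highest in replicates 1 and 2. Of 16 lymphocyte markers 3 were tested, and 0 were called at day 2 by limma, with 0 at an unadjusted p under 0.05. All 3 were called higher at day 14 than at day 2, as were 9.09% of all genes tested. Against control 0 of them were called at day 14.

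Several of the 10 genes are also expressed by epithelial and mesenchymal cells, so markers of these were read in the same libraries. Of 8 tested ductular and epithelial markers 3 were called higher at day 2 and none lower. Krt18 and Krt8, the paired keratins of hepatocytes and duct cells, rose by 3.03 ± 0.31 (limma adjusted p = 0.00194) and 2.72 ± 0.43 log2 units (limma adjusted p = 0.00682). Krt18 stood at 130 and 113 FPKM in control and at 1549, 918, 767 and 931 FPKM at day 2, with replicate 1 highest as for S100a10 and S100a11. The duct marker Krt19 stood at 1.14 and 0.715 FPKM in control and 1.03 to 6.56 FPKM at day 2 (limma adjusted p = 0.134). Of 12 stellate and fibroblast markers 0 were called at day 2 by limma, with 1 at an unadjusted p under 0.05; Vim stood at 10.3 and 9.16 FPKM in control and at 38.9, 17.3, 21.9 and 61.3 FPKM at day 2 (adjusted p = 0.0549). Of 10 endothelial markers 2 were called lower, Kdr and Fcgr2b, and none higher. All 8 mesothelial markers stayed under 1 FPKM in every library. Of 3 tested platelet markers 0 were called at day 2, with 1 at an unadjusted p under 0.05, and of 9 hepatocyte markers 1 was called higher, the transferrin gene Trf.

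**Figure D5:**
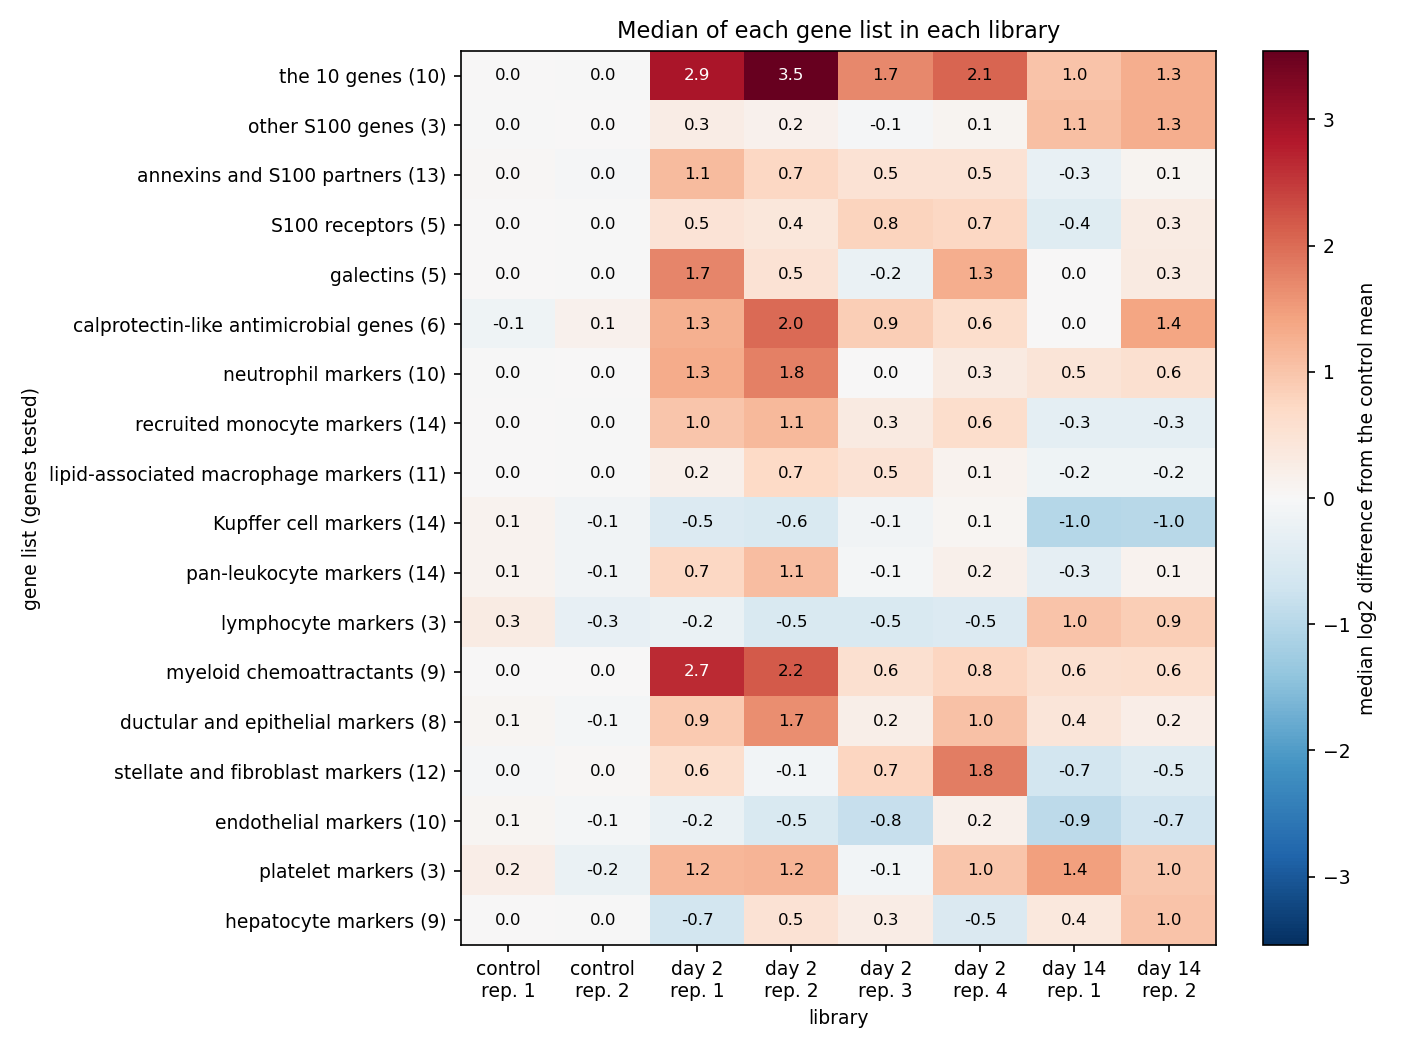
Median log2 difference from the control mean of each gene list in each library, with the number of genes tested in brackets, red for higher and blue for lower. The 10 genes reach 2.9, 3.5, 1.7 and 2.1 in day 2 replicates 1 to 4, neutrophil markers 1.3, 1.8, 0.0 and 0.3, and Kupffer cell markers -1.0 in both day 14 libraries.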

How the data were processed

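Liver RNA of 8 libraries was read from 1 table of FPKM values deposited by the authors. Per the submitters' processing notes HISAT2 2.10, Cufflinks 2.2.1, HTSeq and DESeq2 were used with GRCm38 and mm9. Which of these made the table, and whether libraries were scaled to each other, is not given in the sources used here. FPKM keeps no read counts, so depth and counting error are unknown. The 12340 genes that reached 1 FPKM in 2 or more libraries were put on the log2(FPKM + 1) scale, and limma 3.58.1 in R 4.3.3 fitted 3 group means to all 8 libraries, with its variance trend on the mean (residual degrees of freedom 5, prior 3.23). A call is an adjusted p under 0.05 by the Benjamini-Hochberg method over these genes, and intervals are 95%. The method was tested on simulated data. Groups follow the age label; the 2 treatments were not compared.

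The 10 genes and 18 further gene lists were chosen with earlier results of these data known. Named from each list were the 2 called genes with the largest day 2 change, or else the most abundant gene, and defining markers beside a result they touch. Other genes named beside a count, and Anxa1, Anxa7, Plg, Prtn3, Ngp, Cd14, Il1r2, Clec4d, Hdc, Ifitm3, Fn1, Csf3r, Chil3, Camp, Ltf, Mpo, Elane, S100a13, S100a16, Krt19, Vim and C1qa, were chosen after their values were seen. Fpr1 was also named after its values were seen. Likeness is Pearson's r over 8 libraries. Lengths and positions come from GENCODE M21 for 12307 tested genes, and promoter windows from RefSeq; protein sequences were not used here. The settings varied were the pseudocount (0.1), the filter (none, or 5 FPKM), the scaling (median-ratio or quantile), the groups fitted (the 2 compared alone), the variance trend (none), the length and GC trend (removed with splines of 4 degrees of freedom) and the libraries (each left out in turn). Leaving out day 2 replicates 1 and 2, or 3 and 4, was an alternative chosen on seeing the data.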

Additional observations from a re-analysis of the deposited data

How the results depend on the processing

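At day 2, the 9 genes of the set called higher stayed higher in all 18 alternatives. Leaving out either control left 1 of them called, S100a11, while the genes called over the whole table fell from 2620 to 137 and 112, where the lone control is assumed to vary like the other groups. Over the fits without 1 library the genes called at day 2 ranged from 112 to 2837 and those of the set from 1 to 9. Removing the length and GC trend gave 1679 genes called, and leaving out day 2 replicates 3 and 4 gave 3956.

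For day 14 against control the fit reported called 1208 genes. The count was 691 with no filter, 2664 with the compared groups alone, 447 with the trend removed, 3116 without day 2 replicates 1 and 2, 2210 without replicates 3 and 4, and 1 to 2049 without single libraries. Genes of the set called higher there numbered 2 with a pseudocount of 0.1, 4 with the compared groups alone, 0 with the trend removed, 3 without day 2 replicates 1 and 2, 2 without replicates 3 and 4 and 0 to 2 without single libraries. Those called lower numbered 0 with no filter, 0 with the trend removed and 0 to 1 without single libraries. The added calls were of S100a4 in all 4 of these settings with more than 1 call and without day 2 replicate 2, S100a6 in 2 of them and Retnlg with the compared groups alone. Plac8, not called at day 14, changed sign to -0.0075 with the trend removed and to -0.11 without day 14 replicate 2, and was 0.55 without day 14 replicate 1.

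For day 14 against day 2 the fit reported called 1990 genes. The count was 982 with the compared groups alone, 3477 without day 2 replicates 1 and 2, and 48 to 2414 without single libraries. Genes of the set called lower numbered 8 without day 2 replicates 3 and 4, and 0 to 5 without single libraries, the 0 being without day 14 replicate 1. No paired analysis was possible because the groups share a single number in their titles, the 2 of control replicate 2, day 2 replicate 1 and day 14 replicate 1, and its meaning is not stated. Causes of these changes were not tested. With 2 libraries in control and at day 14 the spread is poorly known, and without read counts the lowest values, such as those of Retnlg in control, carry unknown counting error.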
